A study of Mytilus galloprovincialis with 12 samples.

Results

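Exposure to chlorpyrifos (CHP) followed by injection of estradiol (CHP/E2) was compared with exposure to CHP alone in the digestive gland of female mussels (Mytilus galloprovincialis), so that the difference between the groups addresses the effect of E2 in animals that had met the pesticide. The comparison rests on 8 of the 12 arrays of the series, 4 of CHP/E2 and 4 of CHP, with the spread estimated from all 12, and on the 1816 cDNA clones of the array that carry a deposited value; another 104 clones have none and were not tested. The 4 remaining arrays carry E2 without the pesticide. In CHP/E2, mussels were kept in water with 4.5 mg/L CHP for 3 days by the labels, and then received 25 pmol of E2 in the posterior adductor muscle. In CHP, the labels give 4.5 mg/L CHP for 4 days and name no injection, whereas the methods of the study describe the same length of exposure for both groups and an injection of vehicle. By the labels, length of exposure and injection differ together between the groups and cannot be told apart. The E2 group had the injection of 25 pmol and no pesticide. By the methods of the study, all treated groups also had 0.02% DMSO in the water and 0.05% ethanol by injection. Every treated RNA came from a pool of 6 animals and was hybridised together with RNA of vehicle-treated mussels, which had 0.02% DMSO in the water and 50 µl of artificial sea water with 0.05% ethanol by injection. The value of an array is therefore a log2 ratio of treated to vehicle RNA, and the difference between groups is CHP/E2 minus CHP on the log2 scale.

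CHP is an organophosphate insecticide that inhibits acetylcholinesterase, the enzyme that ends signalling at cholinergic synapses. E2 is the main natural estrogen of vertebrates, where it acts through nuclear receptors that change transcription and through fast signals at the membrane. The mussel digestive gland takes up and digests food, stores lipid and carries out much of the detoxification of the animal, and its cells are rich in lysosomes. The files name each cDNA by a clone ID only. None of these IDs (0 matched) occurred in the RefSeq gene table of the species (assembly xbMytGall1.hap1.1), so that clones are given here without gene name, function, sequence or place in the genome, and the identity of the tissue could not be set against marker genes.

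Over the 8 arrays, spots were brighter than their local background by a median ratio of 1.48 to 2.37 in the treated channel and of 1.15 to 3.92 in the vehicle channel. Between 62.9% and 85.4% of the spots lay 2 SDs of the background or more above it in either channel. The replicate spots of a clone correlated at 0.805 to 0.956 across clones. Treated RNA carried Cy5 on 3 arrays of each group and Cy3 on CHP/E2 replicate 4 and CHP replicate 3. By the names of the scans, no slide held both CHP/E2 and CHP, and CHP/E2 replicates 3 and 4 have the same treated pool number, as do E2 replicates 2 and 4, although the labels count them as separate replicates. Where they were 1 pool, the group holds 3 pools and the p-values measure partly technical spread. Across the clones, the correlation between arrays ran from -0.43 to 0.67 within CHP/E2 and from -0.32 to 0.84 within CHP. CHP/E2 replicate 2 and CHP replicate 4 were hybridised with the same dyes and correlated at -0.57; their direction was taken from the dyes given in the labels. CHP/E2 replicate 4 and CHP replicate 2 were the arrays that departed from their own groups, in part through a set of 66 clones described further on. Without these clones the correlations within groups were 0.014 to 0.42 in CHP/E2 and 0.036 to 0.61 in CHP. CHP/E2 replicate 4 still correlated at only 0.014 to 0.19 with its own group. It correlated at 0.56 with CHP replicate 3, also with treated RNA in Cy3, and at 0.35 with CHP replicate 4, in Cy5. The cause was not tested.

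At the threshold of the study, a log odds of differential expression (B) over 0 in limma, 3 clones differed between CHP/E2 and CHP, and all 3 were higher in CHP/E2 (0.165% of the clones tested). They were Myt01-008H06, Myt01-009F03 and Myt01-004D03. In each of them the CHP/E2 arrays lay near the vehicle, whereas the CHP arrays lay well below it. Clone Myt01-008H06 had log2 ratios of 0.21, 0.093, 0.25 and -0.55 in CHP/E2 replicates 1 to 4, against -2.16, -1.41, -1.96 and -2.29 in CHP replicates 1 to 4. The groups were far apart, since the lowest CHP/E2 array stood above the highest CHP array. The mean was -0.00087 ± 0.38 in CHP/E2 and -1.95 ± 0.39 in CHP (SD, n = 4 arrays each), a difference of 1.95 (standard error 0.234, 95% interval 1.44 to 2.47) or 3.87-fold, with an adjusted p of 0.00786 from limma. On its 2 spots the difference was 2.01 and 1.89.

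Clone Myt01-009F03 gave 0.32, -0.027, 0.12 and -0.46 in CHP/E2, against -1.42, -1.19, -1.90 and -1.86 in CHP. Again no CHP/E2 array fell within the range of CHP. The difference was 1.58 (standard error 0.239, 95% interval 1.05 to 2.11), which is 2.99-fold, at an adjusted p of 0.0344 in limma. Clone Myt01-004D03 gave 0.36, 0.45, 0.18 and -0.57 in CHP/E2, against -1.36, -0.91, -1.39 and -1.23 in CHP. Its difference of 1.32 (standard error 0.228, 95% interval 0.82 to 1.83; 2.51-fold) passed B over 0 but not an adjusted p of 0.05 (adjusted p = 0.0691 from limma), so that 2 clones of the 1816 passed the adjusted p (0.11%). A further clone, Myt01-010F03, had the same form without being called. It gave 0.21, 0.21, 0.20 and -0.66 in CHP/E2, against -1.18, -0.89, -1.30 and -1.01 in CHP, a difference of 1.09 (95% interval 0.52 to 1.66; adjusted p = 0.183 from limma).

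**Figure D1:**
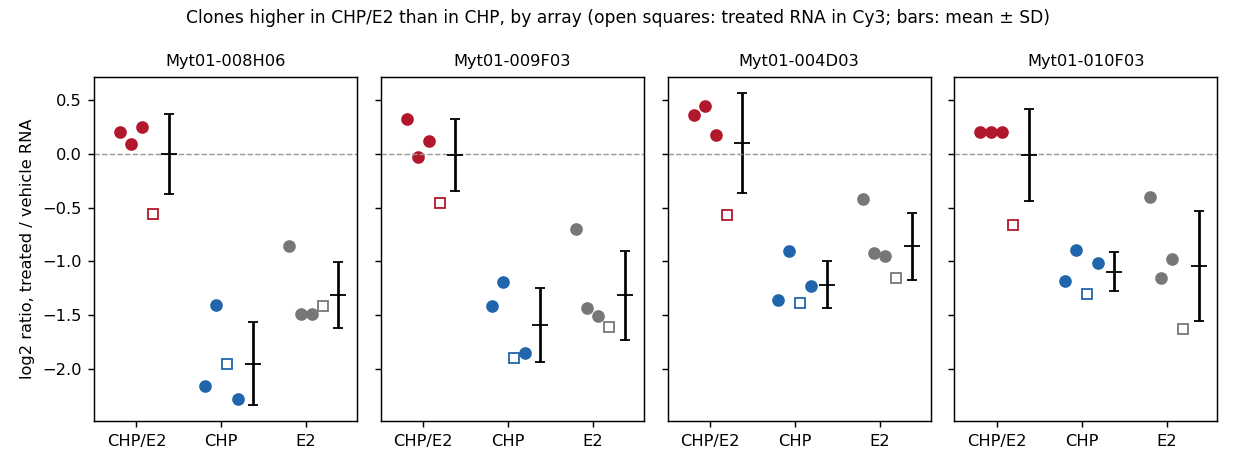
log2 ratio of treated to vehicle RNA on each array for the 3 called clones and for Myt01-010F03, with CHP/E2 in red, CHP in blue and E2 in grey; bars give the mean ± SD of 4 arrays, open squares are arrays with the treated RNA in Cy3, and the dashed line at 0 is the vehicle. All CHP/E2 points lie above all CHP points in each clone, and the lowest CHP/E2 point, at -0.66 to -0.46, is replicate 4 in every clone.

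Among the 12 arrays, these clones moved together: the correlation of Myt01-008H06 was 0.96 with Myt01-004D03 and 0.96 with Myt01-009F03, and that of Myt01-004D03 with Myt01-010F03 was 0.96 (Pearson's r over 12 arrays that share vehicle pools, as a description). All 4 were picked for being higher in CHP/E2 than in CHP, and those arrays are among the 12. This choice by itself favours a high correlation. Which sequences the clones carry is not known from the files, and near-identical cDNAs cannot be told apart from different genes. CHP/E2 replicate 4, the array of exchanged dyes, was the lowest of its group in all 4 of them. Among the arrays with treated RNA in Cy5 the difference was 2.13 for Myt01-008H06, 1.63 for Myt01-009F03, 1.50 for Myt01-004D03 and 1.24 for Myt01-010F03. Between the single pair of arrays with treated RNA in Cy3 it was 1.41, 1.44, 0.82 and 0.65 in the same order of clones. The direction was thus the same with either dye, and each group held 1 such array. Within slides 1 to 4, by the names of the scans, the difference was 1.97, 1.44, 1.46 and 1.24, and within slides 7 to 10 it was 1.57, 1.42, 0.74 and 0.50. Against the same vehicle pool number, the difference was 2.25 with number 2 and 2.10 with number 3 for Myt01-008H06, 1.39 and 1.65 for Myt01-009F03, and 1.81 and 1.25 for Myt01-004D03.

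Fitted on the 8 arrays of CHP/E2 and CHP alone, 2 clones were called, Myt01-008H06 (adjusted p = 0.0798 from limma) and Myt01-009F03 (adjusted p = 0.0808 from limma), so that neither passed an adjusted p of 0.05 and the call of Myt01-004D03 ended. With CHP/E2 replicates 3 and 4 averaged as 1 pool, and E2 replicates 2 and 4 likewise, the 3 clones stayed called, at adjusted p values of 0.0208 for Myt01-008H06, 0.0689 for Myt01-009F03 and 0.066 for Myt01-004D03 in limma, so that 1 clone passed 0.05. The number of calls moved with single arrays. With CHP replicate 2 left out it was 20 (4 higher, 16 lower), and it was 5 on leaving out CHP/E2 replicate 2, CHP/E2 replicate 4 or CHP replicate 3. The 3 clones stayed called in each of these fits. Without CHP/E2 replicate 3, CHP replicate 1 or CHP replicate 4 the call of Myt01-004D03 ended, and 2 clones passed. With median centring in place of loess, Myt01-008H06 was the single clone called, at a difference of 2.40 and an adjusted p of 0.313 in limma.

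Just inside the threshold were Myt01-009F03 and Myt01-004D03, at B values of 2.19 and 1.32. Just outside it were Myt01-009A06 and Myt01-014G02, at -0.080 and -0.18. Clone Myt01-009A06 gave 0.058, 0.16, 0.44 and 0.35 in CHP/E2, against -0.12, -0.075, -0.31 and -0.34 in CHP. Its treated RNA was above background on all 4 CHP/E2 arrays but not well above background on any of the 4 CHP arrays. The difference of its log2 ratios was 0.46 (95% interval 0.25 to 0.68; adjusted p = 0.183 from limma), and since the CHP side was not measured above background no fold is given for this clone.

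At a looser threshold, 247 clones had an unadjusted p under 0.05 in limma (13.6% of those tested). Chance alone gives 5% where arrays are independent. No slide held both groups, and CHP/E2 replicates 3 and 4 have the same treated pool number. The excess over 5% is therefore not read as a response to treatment. Of the 247 clones, 111 were higher (6.11%) and 136 lower (7.49%) in CHP/E2. With median centring the split was 88 higher and 73 lower. The lower clones differed by more, with a median difference of -0.55, whereas the median of the higher ones was 0.33. Over all clones the median difference was 0.00089 and the middle 90% ran from -0.64 to 0.37. The unadjusted 95% interval of a clone reached 0.29 to either side in the median (quartiles 0.22 and 0.41), and for 85 clones it reached 1 or more. With 4 arrays a group, observed differences below about 0.3 were thus mostly not told from 0 even at an unadjusted p under 0.05. A call at B over 0 needed more. The smallest difference called was 1.32, and Myt01-016F08 at 0.77 was not called. For 101 clones the 4 CHP/E2 arrays and the 4 CHP arrays did not overlap (5.56% of those tested). The higher ones numbered 63 (3.47%) and the lower ones 38 (2.09%).

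**Figure D2:**
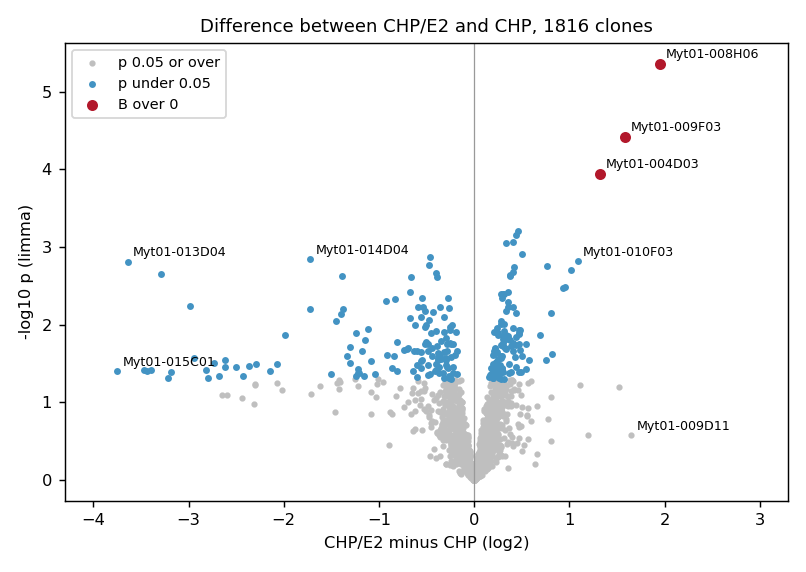
Difference between CHP/E2 and CHP (x axis, log2) against -log10 of limma's unadjusted p (y axis) for the 1816 clones; red points are the 3 clones at B over 0, blue points have a p under 0.05. The 3 called clones lie at the upper right, at differences of 1.32 to 1.95, and most of the clones beyond -1 lie low on the y axis for their size, with Myt01-015C01 at -3.75.

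Of the higher clones without overlap, the 10 with the smallest p are the 4 described in the panel of single arrays, Myt01-009A06 and 5 more that differed by 0.33 to 0.77. The largest of these 5 was Myt01-016F08. Clone Myt01-016F08 gave 0.28, 0.40, 0.84 and 0.39 in CHP/E2, against -0.60, -0.0016, -0.56 and 0.0097 in CHP (difference 0.77, 95% interval 0.36 to 1.18, 1.7-fold). Its CHP arrays fell into a pair near the vehicle and a pair below it. Clone Myt01-018B08 gave 0.35, 0.27, 0.051 and 0.12 in CHP/E2, against -0.60, -0.27, -0.16 and -0.19 in CHP, with a difference of 0.50 (0.24 to 0.76). Clone Myt01-014G02 gave 0.19, -0.13, 0.13 and 0.17 in CHP/E2, against -0.50, -0.31, -0.19 and -0.41 in CHP, with a difference of 0.44 (0.23 to 0.64). In both, CHP/E2 lay around the vehicle or slightly above it and every CHP array below it. Clone Myt01-006E02 gave -0.13, -0.067, 0.042 and 0.16 in CHP/E2, against -0.59, -0.25, -0.32 and -0.46 in CHP (difference 0.41, 0.21 to 0.61). Clone Myt01-010G04 gave 0.19, 0.30, 0.18 and 0.40 in CHP/E2, against -0.12, -0.13, 0.097 and -0.12 in CHP (difference 0.33, 0.17 to 0.50), and here CHP/E2 stood above the vehicle on every array while CHP scattered around it. None of the 5 passed the test across all clones, with an adjusted p of 0.183 for each in limma. Under other settings Myt01-006E02 was called 5 times, Myt01-010G04 6 times and Myt01-014G02 4 times, and Myt01-010F03 7 times.

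The 10 lower clones without overlap and with the smallest p held 2 differences beyond -1 and 8 between -0.66 and -0.28. Clone Myt01-014D04 gave -0.33, -0.38, -0.36 and -0.21 in CHP/E2, against 1.63, -0.11, 2.41 and 1.67 in CHP. The 4 CHP/E2 arrays agreed closely below the vehicle, whereas CHP was high on 3 arrays and near the vehicle on replicate 2. Leaving out replicate 2, the CHP array closest to CHP/E2, by itself favours a call. The difference was -1.72 (95% interval -2.61 to -0.82; adjusted p = 0.183 from limma) with CHP replicate 2 and -2.22 (adjusted p = 0.000596 from limma) without it, where the clone was called. Clone Myt01-010H04 gave -0.83, -0.36, -1.38 and -0.97 in CHP/E2, against 0.38, -0.26, 0.69 and 1.21 in CHP, a difference of -1.39 (-2.17 to -0.61). Its lowest CHP array was again replicate 2, close to the highest CHP/E2 array.

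The other 8 clones differed by less than 1 on the log2 scale. Clone Myt01-013D01 gave -0.47, -0.78, -0.45 and -0.24 in CHP/E2, against 0.41, -0.22, 0.51 and 0.013 in CHP (difference -0.66, -1.03 to -0.29). Clone Myt01-009H09 gave -0.073, -0.094, -0.35 and -0.37 in CHP/E2, against 0.17, 0.091, 0.56 and 0.48 in CHP (difference -0.55, -0.89 to -0.21). In both the 4 CHP/E2 arrays were below the vehicle. Clone Myt01-007E11 gave -0.20, -0.54, -0.0058 and -0.25 in CHP/E2, against 0.34, 0.26, 0.041 and 0.49 in CHP (difference -0.53, -0.88 to -0.19). Clone Myt01-015E01 gave -0.019, -0.47, -0.059 and -0.089 in CHP/E2, against 0.42, 0.19, 0.26 and 0.40 in CHP (difference -0.48, -0.73 to -0.22). For these 2 clones all CHP arrays were above the vehicle and all CHP/E2 arrays below it. Clone Myt01-015E11 gave -0.051, -0.24, -0.17 and -0.14 in CHP/E2, against 0.53, 0.0051, 0.29 and 0.45 in CHP (difference -0.47, -0.71 to -0.23). Clone Myt01-004G03 gave -0.30, -0.19, -0.37 and -0.0069 in CHP/E2, against 0.29, 0.25, 0.16 and 0.031 in CHP (difference -0.40, -0.62 to -0.18). The arrays of Myt01-015E11 and Myt01-004G03 lay on either side of the vehicle in the same way. Clone Myt01-007C09 gave -0.15, -0.35, 0.023 and -0.087 in CHP/E2, against 0.32, 0.082, 0.30 and 0.18 in CHP (difference -0.36, -0.60 to -0.13). Clone Myt01-017F03 gave -0.10, -0.037, 0.055 and -0.033 in CHP/E2, against 0.17, 0.13, 0.34 and 0.37 in CHP (difference -0.28, -0.45 to -0.11). These were the smallest differences of the 10, and in both clones CHP/E2 replicate 3 was the one CHP/E2 array above the vehicle. Their mean log2 signals, 6.79 and 6.96, were the lowest among the named clones. In both, treated RNA was above background on 3 of the 4 CHP arrays. Across the settings tried, their differences ran from -0.90 to -0.025 for Myt01-007C09 and from -0.82 to -0.13 for Myt01-017F03. The adjusted p of the 8 clones ran from 0.183 to 0.248 in limma. Without CHP replicate 2, the lowest CHP array in both, Myt01-015E11 and Myt01-013D01 were called, at -0.57 and -0.79.

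**Figure D3:**
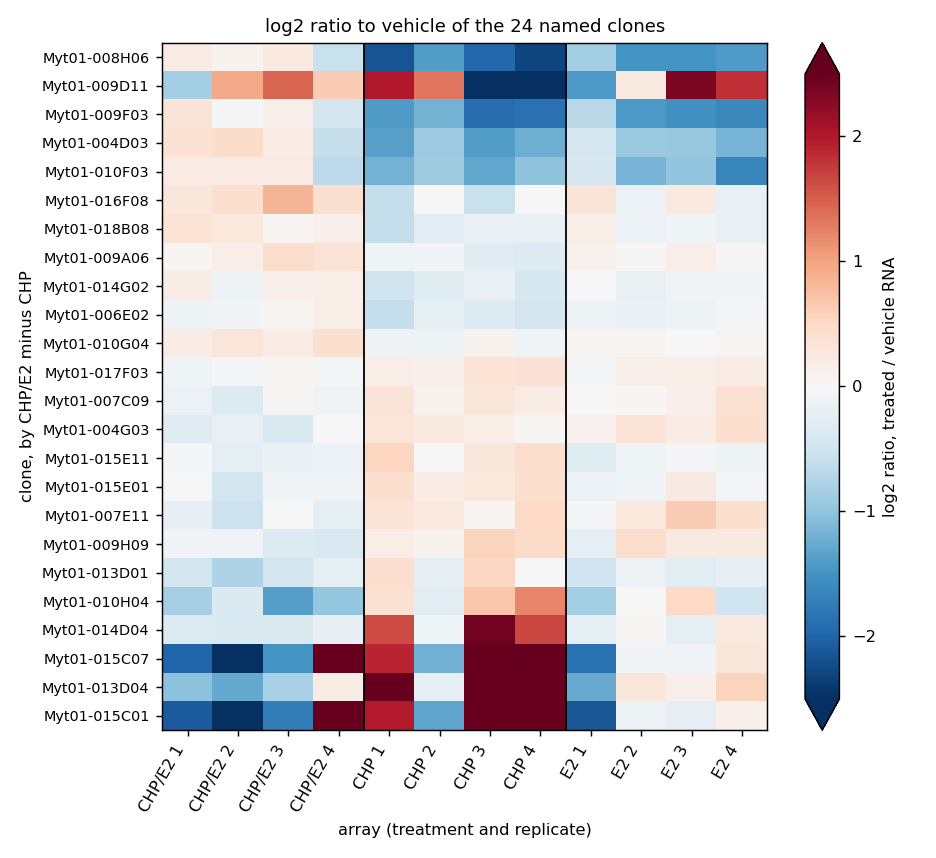
log2 ratio to vehicle (colour, red higher and blue lower, cut at 2.5 to either side) of the 24 named clones (rows, ordered by CHP/E2 minus CHP) on the 12 arrays (columns, CHP/E2, CHP and E2, replicates 1 to 4). The 4 clones with deep blue CHP and E2 columns and pale CHP/E2 columns include the 3 called ones, and the bottom rows show clones that are red on CHP replicates 1, 3 and 4 only, or on CHP/E2 replicate 4 as well.

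Differences of 1 or more on the log2 scale were found for 75 clones, 66 of them lower (3.63% of those tested) and 9 higher (0.496%) in CHP/E2. They were chosen by that difference, so their levels are given as a description. The 66 lower clones varied widely between arrays of a group. Their median log2 ratio was -1.10, -1.28, -0.75 and 1.44 in CHP/E2 replicates 1 to 4, against 0.97, -0.50, 2.69 and 2.14 in CHP replicates 1 to 4, and the E2 arrays were at -1.11, -0.041, -0.080 and 0.27. CHP/E2 replicate 4 was high where the other CHP/E2 arrays were low, and CHP replicate 2 was low where the other CHP arrays were high. Of the 66, 44 had a p under 0.05 (over all clones, 7.49% were lower at this p), 3 showed no overlap between the groups (2.09% of all clones lower) and 0 were called at B over 0 in limma (0.165% of all clones, all higher). Nothing is read from these counts, since the clones were chosen by the difference that the p tests. The 3 without overlap were Myt01-014D04, Myt01-010H04 and Myt01-010H07. The last was at -0.89, -0.28, -0.91 and -0.79 in CHP/E2, against 0.67, -0.23, 0.43 and 0.96 in CHP, and was looked up after its values were seen.

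Within the 66 clones, 42 were over 1 on CHP/E2 replicate 4 and 24 were not. In the 42, the median on that array was 2.22, against 3.36 on CHP replicate 3 and 3.14 on CHP replicate 4, and it was -2.04 on CHP/E2 replicate 2 and -0.61 on CHP replicate 2. The largest was Myt01-015C01. It gave -2.09, -3.44, -1.74 and 3.16 in CHP/E2, against 1.99, -1.31, 5.67 and 4.53 in CHP, and the difference of -3.75 had a 95% interval of -7.28 to -0.21. Clone Myt01-015C07 gave -2.01, -3.04, -1.50 and 2.91 in CHP/E2, against 1.90, -1.20, 5.26 and 4.27 in CHP, nearly the same profile at a difference of -3.47. In both clones CHP replicates 1 and 2 fell inside the range of the CHP/E2 arrays. The treated RNA of CHP/E2 replicate 4 carried Cy3, as did that of CHP replicate 3, whereas that of CHP replicates 1 and 4, also high, carried Cy5. Whether the dye, the slide or the animals of a pool gave the profile was not tested. Within slides 1 to 4 the difference of Myt01-015C01 was -2.76, and within slides 7 to 10 it was -1.94.

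In the other 24 clones the CHP/E2 arrays stayed closer together, which follows in part from the split on CHP/E2 replicate 4. Clone Myt01-013D04 was among them. It gave -1.03, -1.27, -0.81 and 0.19 in CHP/E2, against 3.74, -0.22, 4.53 and 3.58 in CHP. It was thus more than 3 log2 units above the vehicle on 3 CHP arrays and near or below the vehicle on the other 5 arrays of the comparison. The difference was -3.64 (95% interval -5.56 to -1.72; adjusted p = 0.183 from limma), and -4.68 (adjusted p = 0.000734 from limma) without CHP replicate 2. Clones Myt01-008H05 and Myt01-017F02 had the same form and were picked out after their values were seen. Clone Myt01-008H05 gave -0.98, -1.17, -0.94 and -0.026 in CHP/E2, against 3.11, -0.53, 4.30 and 3.18 in CHP. Clone Myt01-017F02 gave -0.62, -0.52, -0.79 and 0.50 in CHP/E2, against 3.03, -0.52, 4.59 and 3.42 in CHP. Their differences were -3.29 and -2.99 with all arrays. Without CHP replicate 2, which correlated least with the other CHP arrays, both were called, at -4.31 and -4.04.

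**Figure D4:**
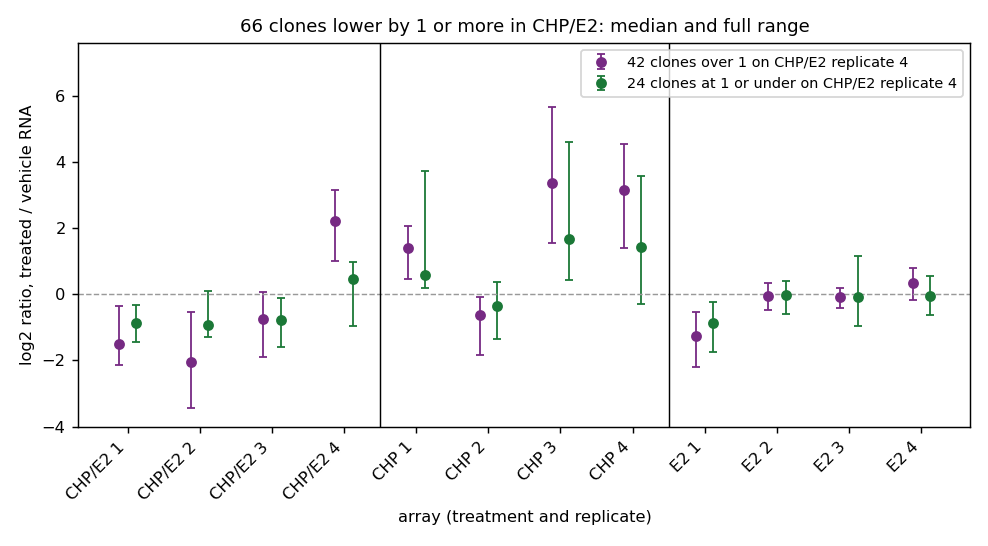
Median (points) and full range (bars) of the log2 ratio to vehicle on each array for the 66 clones lower by 1 or more in CHP/E2, split into 42 clones over 1 on CHP/E2 replicate 4 (purple) and 24 at 1 or under (green). CHP replicates 1, 3 and 4 and CHP/E2 replicate 4 lie above the vehicle, with medians of the 66 between 0.97 and 2.69, while CHP replicate 2 lies with CHP/E2 replicates 1 to 3 below it.

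The clones lower by 1 or more were unevenly spread over the numbers at the start of the clone ID, read here as source plates. Plates 13, 14 and 15 held 9, 11 and 9 of the 66 among 94, 93 and 94 clones tested, while plates 1, 2, 3, 19 and 20 held 0. The share of clones with a p under 0.05 was 30.9% on plate 15, 22.1% on plate 18, 21.3% on plate 13, 4.26% on plate 1 and 0% on plate 20. The 3 called clones came from plates 4, 8 and 9.

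The 9 clones higher by 1 or more split into the 4 of the panel of single arrays, Myt01-017B08 and 4 clones of wide spread. Clone Myt01-017B08, named for its size after its values were seen, gave 1.09, 0.72, 0.62 and 0.62 in CHP/E2, against -0.70, -0.34, -0.020 and 0.060 in CHP (difference 1.01, 0.46 to 1.56; adjusted p = 0.183 from limma), and all 4 CHP/E2 arrays stood above all CHP arrays. The largest of the wide clones was Myt01-009D11. It gave -0.85, 0.94, 1.45 and 0.63 in CHP/E2, against 2.01, 1.34, -4.37 and -3.39 in CHP. Its CHP arrays formed a high and a low pair that enclosed the whole range of CHP/E2, and the difference of 1.65 had a 95% interval of -1.44 to 4.73 (adjusted p = 0.638 from limma).

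The clones that CHP alone had changed were set beside their levels after the injection. With CHP alone, 39 clones were called against vehicle at B over 0 (2.15%), 25 higher and 14 lower. The median log2 ratio of the 25 was 0.49 in CHP/E2 and 0.82 in CHP, and that of the 14 was -0.0098 in CHP/E2 and -0.40 in CHP. These clones were chosen on the CHP arrays, which are also in the difference, so that this choice by itself favours a smaller response in CHP/E2. The clone of the largest rise among the 39, Myt01-008E11, lay well above the vehicle in both groups. It gave 2.46, 1.90, 1.39 and 2.25 in CHP/E2, against 1.55, 1.91, 1.83 and 2.00 in CHP, and the difference was 0.18 (95% interval -0.25 to 0.60; adjusted p = 0.716 from limma), which allows a rise or a fall by the injection within those limits.

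To ask whether the injection acted differently with and without the pesticide, the difference CHP/E2 minus CHP was set against the log2 ratio of E2 to vehicle in the same fit. Length of exposure by the labels and slide also differ between CHP/E2 and CHP and enter this contrast. The effects differed for 10 clones at B over 0 (0.551% of those tested), 6 more positive with CHP (0.33%) and 4 more negative (0.22%), and 5 of them passed an adjusted p of 0.05. Without the pesticide, E2 gave 8 calls (0.441%). The 3 clones called for CHP/E2 minus CHP, and Myt01-010F03, were the largest of the 6. Their differences CHP/E2 minus CHP were 1.95, 1.58, 1.32 and 1.09. Without CHP, the E2 arrays of Myt01-008H06 were at -0.86, -1.49, -1.49 and -1.42, a mean of -1.32 ± 0.31 (SD, n = 4 arrays). Those of Myt01-009F03 were at -0.70, -1.44, -1.51 and -1.61, those of Myt01-004D03 at -0.42, -0.92, -0.95 and -1.16 and those of Myt01-010F03 at -0.40, -1.16, -0.98 and -1.63. In each of the 4 clones the mean effect was positive after CHP and negative without it. The positive sign was fixed by choosing them as clones higher in CHP/E2 than in CHP.

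For Myt01-008H06 the 2 effects differed by 3.27 (standard error 0.287, adjusted p = 0.00035 from limma). For Myt01-009F03 they differed by 2.90 (adjusted p = 0.000738 from limma), for Myt01-004D03 by 2.19 (adjusted p = 0.00472) and for Myt01-010F03 by 2.13 (adjusted p = 0.0154). In these clones the mean of the CHP arrays and that of the E2 arrays lay below the vehicle, whereas that of the CHP/E2 arrays lay within 0.11 of it. The spread among vehicle pools enters this contrast. With the vehicle pool number as a term 5 clones were called in place of 10. That fit held only the 9 arrays with such a number and none with treated RNA in Cy3. The term and the loss of arrays cannot be told apart in it. With arrays of 1 treated pool number averaged, 7 were called. The other clone to pass the adjusted p was Myt01-005E01, at -0.27 after CHP and 0.72 without it (adjusted p = 0.0431 from limma).

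The remaining 5 calls had adjusted p values of 0.061 to 0.103 in limma. Clones Myt01-006E02 and Myt01-005E05 had differences of 0.41 and 0.47 after CHP and stood at -0.12 and -0.47 with E2 alone. Clones Myt01-004G03, Myt01-007E04 and Myt01-008C01 had differences of -0.40, -0.43 and -0.39 after CHP and stood at 0.26, 0.43 and 0.24 with E2 alone. The 10 clones were chosen because the effects differ, which favours opposite signs, so their signs are a description. For Myt01-006E02 the ratio with E2 alone had a 95% interval of -0.26 to 0.020, which includes 0. At an unadjusted p under 0.05, 246 clones (13.5%) passed for the difference between the effects and 152 (8.37%) for E2 alone. Leaving out CHP replicate 2 gave 17 calls, and leaving out CHP/E2 replicate 3 or CHP replicate 1 gave 5.

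**Figure D5:**
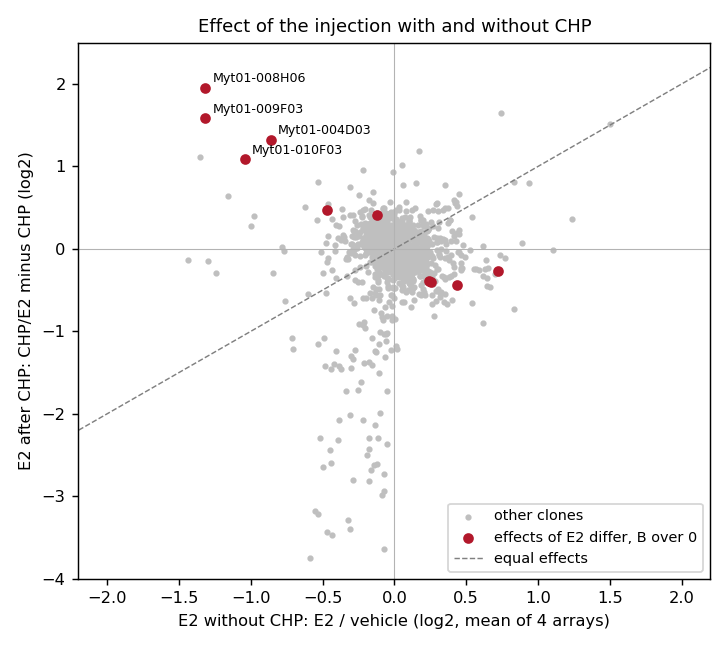
Effect of the injection after CHP (y axis, CHP/E2 minus CHP, log2) against its effect without CHP (x axis, log2 ratio of E2 to vehicle, mean of 4 arrays) for the 1816 clones; red points are the 10 clones whose effects differ at B over 0 and the dashed line marks equal effects. The 4 labelled clones lie at the upper left, at 1.09 to 1.95 after CHP and -1.32 to -0.86 without it, and the grey column of points down to -3.75 holds the clones that varied widely between arrays. Length of exposure by the labels and slide enter the y axis as well.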

How the data were processed

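Digestive gland RNA was measured on dual color cDNA arrays, 4 for each of 3 treatments (CHP/E2, CHP and E2), with vehicle RNA in the other channel. The authors deposited scanner intensities of both channels, without background subtraction, and a table of their normalized log2 ratios, whose preparation is not given in the sources used here beyond the use of limma. The intensities were used here: background correction with normexp (offset 50), loess within arrays with the 720 spots of no clone at weight 0, ratios of exchanged dyes turned, and the 2 spots of a clone averaged. The direction was checked against the deposited log2 ratios, which correlated at 0.881 or more with the recomputed ones on the 8 arrays compared; the median of each deposited column lay within 0.02 of 0. One fit with lmFit and eBayes (limma 3.58.1, R 4.3.3) covered 12 arrays. Calls required B over 0, the threshold of the study, at a prior proportion of 0.01, which the study does not state. The Benjamini-Hochberg adjusted p is given beside it, and tests are two-sided. At B over 0 the study reported more genes for CHP and for E2 against vehicle than the clones called here. The fit was run on simulated data with independent noise on each array. These data hold no shared pools, slides or dye effects, so the run cannot speak to them.

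Groups came from the labels; slide, vehicle pool and treated pool numbers from the names of the scans. The signal over background stands for depth, and the number of arrays limits precision. A spot counted as above background at 2 SDs. Named clones are the called ones, the 10 higher and the 10 lower with the smallest p among clones without overlap between groups, the 3 largest differences each way, and the 2 clones just inside and just outside B = 0. The clones, the rule and the alternatives were chosen with earlier results of these data known. Lists of gene groups and of markers could not be applied without gene names. Alternatives concerned background, normalisation, dye, slide, pool, blocks, filters, the deposited ratios and each array left out.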

Additional observations from a re-analysis of the deposited data

Results flagged for a closer look

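In a group of 4 arrays, a single array stood apart from the other 3, by Dixon's criterion, in 6 of the 72 groups examined, where chance alone gives about 1 in 20, or 3.6. They were CHP/E2 replicate 4 for Myt01-010F03 (-0.66, the lowest), CHP/E2 replicate 2 for Myt01-015E01 (-0.47, the lowest), CHP replicate 3 for Myt01-010G04 (0.097, the highest), and E2 replicate 1 for Myt01-008H06 (-0.86, the highest) and Myt01-015C01 (-2.14, the lowest). The last was E2 replicate 3 for Myt01-010G04 (0.0078, the lowest). Over all clones the effect of E2 differed for 10 (0.551% of those tested). Length of exposure by the labels and slide enter this contrast as well. For 6 of the 24 named clones, which were chosen on a part of the same contrast so that nothing is read from this count, the effect of E2 differed between mussels with and without CHP, by B over 0 in limma for the difference between the effects: 3.27 for Myt01-008H06, 2.90 for Myt01-009F03, 2.19 for Myt01-004D03, 2.13 for Myt01-010F03, 0.53 for Myt01-006E02 and -0.66 for Myt01-004G03 on the log2 scale.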

How the results depend on the processing

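Across 30 settings, 678 of 720 values of the named clones kept their direction and side of the threshold. Of the others, 10 fell below it, 32 passed it and 0 changed sign. In a part of the settings the difference could not change by design. These were the dye term, the 8 arrays alone, the replicate block, the adjusted p, the other clone sets and each E2 array left out. The count of 0 is therefore partly fixed in advance. The 3 calls for CHP/E2 minus CHP became 5 with no background correction, 1 with median centring and 7 (5 higher, 2 lower) with the deposited ratios. They became 8 with a dye term and 9 (8 higher, 1 lower) with array weights. With the vehicle pool number as a term they became 9 (4 higher, 5 lower). This fit held only the 9 arrays with such a number, without those of treated RNA in Cy3. Slide as a fixed term gave 10 (3 higher, 7 lower), none of them among the 3. It left 3 residual degrees of freedom and could not be fitted for the difference from E2. Its difference came only from CHP/E2 replicate 3 and CHP replicate 3, each against an E2 array on its slide. In it Myt01-008H06, Myt01-009F03 and Myt01-004D03 stood at 2.28, 1.92 and 1.36. The 2 sets of slides as a term, chosen after seeing the data, gave 7. Leaving out 1 array gave 2 to 20 calls, 166 to 344 clones at an unadjusted p under 0.05, and 5 to 17 calls for the difference from E2. Median centring gave 161 clones at a p under 0.05 in place of 247. The 10 calls for the difference from E2 became 5 with median centring, 20 with a dye term and 19 with array weights. They became 5 with the vehicle pool number as a term, on the same 9 arrays, and 5 with the adjusted p. The causes were not tested.

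The labels number the replicates alike in each group, but same-numbered CHP/E2 and CHP arrays deviated together at r = 0.20, 0.60, -0.45 and 0.51 and CHP/E2 replicate 4 was closest to CHP replicate 3 (0.73), so the numbers do not pair the arrays. With the replicate number as a block, 3 clones were called for CHP/E2 minus CHP, the same 3, with 254 at a p under 0.05, and 6 for the difference from E2.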
